A study of Mus musculus with 26 samples.

Results

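The genes that carry a cell through S phase and mitosis were followed in mouse bone marrow leukocytes under restraint stress, alone or with the beta-adrenergic blocker propranolol. The set was a list of 43 gene symbols, 16 acting in S phase (the Mcm2 to Mcm7 helicase genes, Rrm1, Rrm2, Tyms, Tk1, Cdc6, Cdt1, Gmnn, Ccne1, Ccne2 and E2f1) and 27 acting in mitosis, and every array probe annotated with one of these symbols was taken. Probes existed for 39 of the 43 genes (68 of the 25697 probes on the array), and Aurkb, Kif20a, Nuf2 and Racgap1 had no probe under these symbols. All 39 genes, and 65 of their 68 probes, passed the filter on detection, which 10914 of the 18113 genes named on the array passed.

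RNA came from cells sorted out of the femoral marrow of male SCID mice of the strain CB17/Icr-Prkdcscid, 6 to 8 weeks old. Human acute lymphoblastic leukemia had been engrafted earlier in all animals, controls included, and the sort gate removed the leukemia cells. SCID mice carry a defect in Prkdc, lack mature B and T cells, and keep the other marrow lineages. The 3 conditions were home cage control, restraint stress, and restraint stress with propranolol, for which the labels used here give no dose or duration. Each condition was run in 2 experiments with 5 control, 5 restraint and 3 restraint plus propranolol arrays per experiment (26 Illumina MouseRef-8 v2.0 arrays in 6 groups). Whether the arrays stand for separate mice is not stated in the labels, so p-values measure the spread between these arrays, which may be technical.

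In dividing cells, E2F transcription factors switch on the genes for DNA replication at the G1 to S transition: cyclin E, the loading factors Cdc6 and Cdt1, the Mcm helicase, and the enzymes that make deoxynucleotides. A second wave, driven by the MuvB complex with B-Myb and FoxM1, raises the cyclins A and B, the mitotic kinases, and the proteins of the spindle, the kinetochore and cytokinesis. In marrow these genes are used mainly by erythroblasts, lymphoid and myeloid precursors and other proliferating progenitors, whereas mature neutrophils have left the cell cycle.

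The promoters of both gene classes are shown because motifs known to control the 2 waves were found in different shares of the 2 lists. Windows from 250 bases before to 50 bases after the transcription start, taken from RefSeq on GRCm38.p6, existed for 35 of the 43 genes, 13 of S phase and 22 of mitosis. They were searched on both strands for 4 E2F octamers (TTTGGCGC, TTTCCCGC, TTTCGCGC and TTTGCCGC), for the cell cycle homology region element, or CHR (TTTGAA), and for the NF-Y box CCAAT. The 4 octamers can overlap each other on opposite strands. An E2F octamer was present in 6 of 13 S phase windows (46.2%) and 0 of 22 mitosis windows, beside 4.24% of the 8286 measured genes with a window. The CHR was present in 14 of 22 mitosis windows (63.6%) and 1 of 13 S phase windows (7.69%), beside 12.6% of measured genes. CHR and CCAAT stood together in 13 of 22 mitosis windows (59.1%), beside 5.53% of measured genes. The 150 bases before the start of 5 genes described below follow, 5′ to 3′ on the gene's strand, with any E2F octamer, CHR or CCAAT box on either strand in capitals.
Mcm6 (chr1:128359706-128359855, minus strand): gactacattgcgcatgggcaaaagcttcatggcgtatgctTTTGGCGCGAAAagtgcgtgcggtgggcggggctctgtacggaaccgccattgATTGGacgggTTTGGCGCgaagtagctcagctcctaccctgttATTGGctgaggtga
Cdc6 (chr11:98908001-98908150, plus strand): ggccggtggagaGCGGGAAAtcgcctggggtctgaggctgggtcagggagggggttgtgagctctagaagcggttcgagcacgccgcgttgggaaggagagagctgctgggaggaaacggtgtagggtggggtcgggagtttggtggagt
Rrm2 (chr12:24708104-24708253, plus strand): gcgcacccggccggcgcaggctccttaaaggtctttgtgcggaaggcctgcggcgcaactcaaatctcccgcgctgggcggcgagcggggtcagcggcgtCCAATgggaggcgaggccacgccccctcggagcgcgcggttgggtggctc
Ccnb1 (chr13:100786487-100786636, minus strand): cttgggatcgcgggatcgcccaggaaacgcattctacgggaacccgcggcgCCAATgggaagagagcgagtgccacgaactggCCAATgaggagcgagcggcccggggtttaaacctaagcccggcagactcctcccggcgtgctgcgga
Ube2c (chr2:164769779-164769928, plus strand): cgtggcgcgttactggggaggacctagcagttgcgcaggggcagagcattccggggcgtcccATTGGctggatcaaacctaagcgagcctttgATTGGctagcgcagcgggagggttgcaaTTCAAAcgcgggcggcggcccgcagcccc
The stretch of Mcm6 holds 3 E2F matches, of which the first pair overlap, and 2 CCAAT boxes, and that of Cdc6 holds 1 E2F match. Ube2c combines 1 CHR with 2 CCAAT boxes in the bases shown, whereas Ccnb1 shows 2 CCAAT boxes and Rrm2 1, with no CHR or E2F octamer of these letters. Such matches describe these windows and do not show that a factor binds there.

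The values are background-corrected, quantile-normalized log2 intensities, so a difference of 1 is a change of 2-fold, and each gene is described by its kept probe of highest mean. The share of probes detected ran from 39.5% to 51.2% per array and the median raw signal from 124 to 156. Replicate 3 of restraint plus propranolol in experiment 2 stood apart: it had the lowest share of detected probes (39.5%) and the lowest array weight (0.155), and the lowest correlation between arrays of a group was 0.852. The arrays next in weight were the control replicate 4 of experiment 2 (42.5% detected) and the control replicate 5 of experiment 1 (44.6%). All 7 leukocyte markers were measured, and Ptprc, Itgam and Itgb2 were detected on all 26 arrays. Of the B cell precursor markers, Pax5, Ms4a1 and Rag2 were detected on 0 arrays, while 8 others were measured. These ran from Ebf1, detected on 26 arrays, through Rag1 on 15 to Vpreb3 on 4. Of the cell cycle genes, 29 were detected on all 26 arrays. Detection was lowest for Ccne1 (10 arrays), Ccnb2 (14 arrays) and Ccne2 (21 arrays), so their values lie near background.

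Under restraint, 1 of the 39 cell cycle genes fell past the test, cyclin A2 (Ccna2), a call that 21 of 37 alternative settings lost, and most of the others had lower means that did not pass it. The difference between restraint and control, averaged over both experiments, was negative for 34 of 39 genes (87.2%), with a median of -0.17, while the median of all 10914 genes was 0 and 50.4% of them were negative. By limma with Benjamini-Hochberg adjustment over all probes, 1 member was called lower and 0 higher at an adjusted p under 0.05, beside 2.24% of all genes called in either direction and 1.19% called lower. At an unadjusted p under 0.05, 7 members were lower and 0 higher (Ccna2, Tpx2, Nusap1, Ccnb1, Ube2c, Plk1 and Rrm2), which is 17.9% of members beside 8.41% of all genes. The S phase genes were negative in 15 of 16 cases (median -0.15) and the mitosis genes in 19 of 23 (median -0.19). Because the cells were measured in bulk, fewer dividing cells and less of each RNA per cell cannot be told apart.

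The mean over the 16 S phase genes was 8.47 ± 0.27 (SD, n = 10) on control arrays and 8.26 ± 0.23 (SD, n = 10) on restraint arrays. Their difference was -0.21 ± 0.12 (SE), with 8 of 10 restraint arrays below the control mean of their experiment. The mean over the 23 mitosis genes was 8.21 ± 0.14 on control arrays and 7.98 ± 0.24 on restraint arrays (SD, n = 10 each), a difference of -0.23 ± 0.14 (SE) with 9 of 10 restraint arrays below. Both differences were smaller than the SD of single arrays within groups (0.26 for S phase and 0.29 for mitosis). The mean over all genes differed by -0.02. The restraint replicate 1 of experiment 1 was the lowest restraint array for both lists (7.69 and 7.44), and without it the differences were -0.14 and -0.16.

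**Figure D1:**
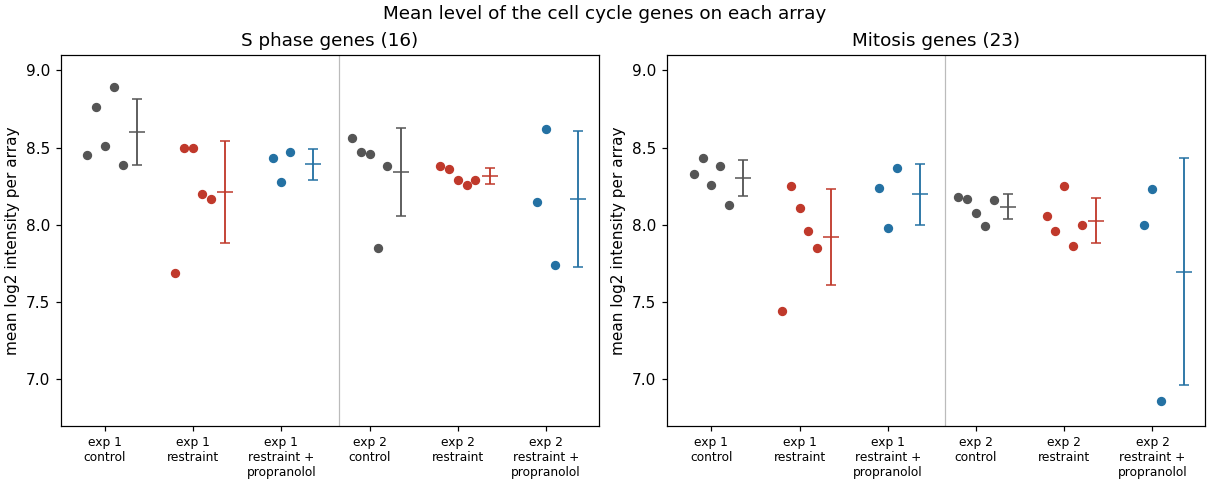
Mean log2 intensity (y axis) of the 16 S phase genes (left) and the 23 mitosis genes (right) on each of the 26 arrays, by group, with each group's mean and SD beside its points (n = 5, 5 and 3 per experiment). In experiment 1 the restraint means differ from the control means by -0.39 and -0.38, in experiment 2 the restraint and control means nearly coincide, and 1 restraint plus propranolol array sits at 6.86 in the mitosis panel.

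Ccna2, counted here among the mitosis genes, encodes cyclin A2, which activates CDK2 in S phase and CDK1 on the way into mitosis. In experiment 1 its log2 intensity was 8.86, 9.06, 8.59, 8.92 and 9.45 on control arrays and 7.53, 8.72, 8.51, 8.09 and 7.82 on restraint arrays. Experiment 2 gave 8.86, 8.97, 8.61, 9.26 and 8.24 on control and 8.57, 8.31, 8.4, 8.68 and 7.92 on restraint arrays. All 10 restraint arrays lay below the control mean of their experiment, yet the groups overlapped in both experiments, in the first by a single pair of arrays (8.72 under restraint above 8.59 in control). The difference was -0.63 ± 0.17 (SE; 95% interval -0.97 to -0.28), a 1.54-fold lower level, with a limma adjusted p of 0.0472. It was -0.84 in experiment 1 and -0.41 in experiment 2. The call sat just inside the threshold: the estimate stayed between -0.70 and -0.47 under all 37 alternative settings, while the adjusted p ranged from 0.0144 to 0.225 and was above 0.05 in 21 of them.

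The B-type cyclins bind CDK1 and drive entry into mitosis. Ccnb1 on control arrays was 7.65, 7.72, 7.05, 7.71 and 7.65 in experiment 1 and 7.37, 7.31, 6.62, 7.64 and 7.38 in experiment 2. On restraint arrays Ccnb1 was 5.45, 7.67, 7.15, 6.69 and 6.49 in experiment 1 and 5.84, 6.7, 7.88, 5.35 and 6.19 in experiment 2. Restraint arrays scattered over more than 2 log2 units, and in each experiment the highest of them reached into the upper end of the control range or beyond it. The difference of -0.87 ± 0.33 (SE) was the largest in size of the 39 genes and did not pass the test (limma adjusted p = 0.193). Its other kept probe gave -0.82. Ccnb2, near background, differed by -0.19.

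Nusap1 and Tpx2 encode spindle proteins, the first bundling microtubules and the second activating Aurora A kinase and nucleating microtubules around chromosomes. Nusap1 in experiment 1 read 8.69, 8.45, 8.32, 8.29 and 8.99 on control and 7.62, 8.12, 8.22, 7.74 and 7.61 on restraint arrays. In experiment 2, Nusap1 read 8.37, 8.48, 8.23, 8.86 and 8.1 on control and 7.69, 7.61, 8.26, 7.82 and 7.55 on restraint arrays. All restraint arrays lay below all control arrays in experiment 1, and in experiment 2 1 restraint array (8.26) overlapped the controls. The difference was -0.66 ± 0.23 (SE) with 10 of 10 restraint arrays below the control mean (limma adjusted p = 0.143), and over its 3 kept probes it ran from -0.66 to -0.21. Tpx2 read 8.54, 8.59, 8.18, 8.56 and 9.06 on control and 7.48, 8.58, 8.14, 7.54 and 8.1 on restraint arrays of experiment 1. In experiment 2, Tpx2 read 8.42, 8.26, 8.03, 8.79 and 8.27 on control and 7.73, 7.85, 8.16, 8.63 and 8.03 on restraint arrays. The Tpx2 groups overlapped in both experiments, with 9 of 10 restraint arrays below, and the difference was -0.45 ± 0.15 (SE; limma adjusted p = 0.133). Prc1, a bundler of the central spindle, differed by -0.36, and all 5 restraint arrays lay below all control arrays in experiment 2 (8.12 to 8.59 against 8.67 to 8.81). The motor genes Kif11 and Kif23 differed by -0.22 and 0.03. Groups of this kind, with all restraint arrays below all controls, were found for 1 member in each experiment, beside 1.67% of all genes in experiment 1 and 0.88% in experiment 2.

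Ube2c and Cdc20 serve the anaphase-promoting complex, Ube2c as its ubiquitin-conjugating enzyme and Cdc20 as its activator. Ube2c in experiment 1 was 8.65, 8.81, 8.34, 8.41 and 8.83 on control and 7.28, 8.76, 7.97, 7.53 and 7.78 on restraint arrays. In experiment 2, Ube2c was 8.33, 8.46, 7.95, 8.2 and 8.25 on control and 8.07, 7.98, 8.15, 8.43 and 7.24 on restraint arrays. All but 1 restraint arrays of experiment 1 were below every control, and the remaining one lay among the controls, while the groups of experiment 2 overlapped widely. The difference was -0.50 ± 0.19 (SE; limma adjusted p = 0.197). Cdc20 differed by -0.31, but its 4 kept probes ran from -0.39 to 0.16. Among the mitotic kinases, Plk1, needed for spindle assembly, differed by -0.27, Bub1 and Bub1b of the spindle checkpoint by -0.15 and -0.17, Aurka, the centrosome kinase, by -0.04 and Melk by 0.02, with -0.37 and -0.49 for the other kept Melk probes. The kinetochore and centromere genes Cenpa, Ndc80, Mad2l1, Birc5 and Cdca8 spanned -0.21 (Birc5) to 0.04 (Ndc80). The transcription factors Foxm1 (0.10, the highest of the 39) and Mybl2 (-0.06, and -0.15 to 0.15 over its 3 kept probes) and the topoisomerase gene Top2a (-0.20) also missed the test.

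Among the S phase genes the smallest p belonged to Rrm2, the regulated subunit of ribonucleotide reductase. Rrm2 was 10.79, 10.92, 10.53, 10.74 and 10.74 on control and 9.75, 10.94, 10.48, 10.15 and 10.21 on restraint arrays of experiment 1. In experiment 2, Rrm2 was 10.61, 10.66, 10.46, 10.16 and 10.35 on control and 10.09, 10.34, 10.57, 10.44 and 10.31 on restraint arrays. The highest restraint array of experiment 1 (10.94) exceeded every control, and the groups overlapped in both experiments. The difference was -0.27 ± 0.12 (SE; limma adjusted p = 0.325), and both Rrm2 probes gave -0.27. The other enzymes of nucleotide supply differed by -0.08 (Rrm1), -0.26 (Tk1) and -0.37 (Tyms), with the 4 Tyms probes running from -0.40 to 0.17.

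E2f1 and Ccne2 act at the G1 to S transition, E2f1 as the transcription factor and Ccne2 as a cyclin partner of CDK2. E2f1 in experiment 1 was 9.48, 9.52, 9.43, 9.38 and 10.24 on control and 8.6, 9.54, 9.59, 8.62 and 8.89 on restraint arrays. In experiment 2, E2f1 was 9.76, 9.53, 9.52, 10.05 and 9 on control and 9.2, 9.4, 8.67, 9.92 and 9.24 on restraint arrays. The E2f1 groups overlapped in both experiments, with 9 of 10 below the control mean and a difference of -0.42 ± 0.22 (SE; limma adjusted p = 0.392). Ccne2 was 5.94, 6.32, 5.97, 6.93 and 6.35 on control and 4.65, 5.54, 5.44, 5.99 and 5.71 on restraint arrays of experiment 1. In experiment 2, Ccne2 was 6.14, 6.2, 5.5, 4.95 and 5.34 on control and 5.81, 6.03, 6.23, 4.7 and 4.58 on restraint arrays. The Ccne2 groups overlapped by 1 restraint array in experiment 1 and almost fully in experiment 2, and the difference was -0.49 ± 0.26 (SE; limma adjusted p = 0.402).

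Cdc6 loads the Mcm2 to Mcm7 helicase onto origins together with Cdt1, which Gmnn (geminin) inhibits. Cdc6 was 7.11, 7.75, 7.13, 8.07 and 6.94 on control and 5.74, 6.96, 7.29, 6.94 and 6.95 on restraint arrays of experiment 1. In experiment 2, Cdc6 was 7.76, 7.57, 7.27, 6.54 and 7.4 on control and 7.4, 7.27, 7.42, 7.16 and 7.13 on restraint arrays. In experiment 1 the control replicates 2 and 4 lay above every restraint array and restraint replicate 1 (5.74) lay below every control, whereas in experiment 2 the restraint arrays fell inside the control range. The difference was -0.33 ± 0.21 (SE; limma adjusted p = 0.517). Mcm6 was 10.78, 11.05, 10.8, 10.91 and 10.58 on control and 10.33, 10.81, 10.81, 10.47 and 10.54 on restraint arrays of experiment 1. In experiment 2, Mcm6 was 10.78, 10.76, 10.61, 10.5 and 10.79 on control and 10.56, 10.65, 10.68, 10.71 and 10.55 on restraint arrays. Mcm6 varied little between arrays, 9 of 10 restraint arrays lay below the control mean, and the difference was -0.15 ± 0.09 (SE; limma adjusted p = 0.510). By the probe that stands for each gene, the 6 helicase genes had negative differences, from -0.41 (Mcm7) to -0.07 (Mcm5), and 0 of them passed the test. The probes of Mcm4 had opposite signs, with -0.11 for the probe used and -0.01 and 0.25 for its other kept probes. Of the 14 members with several kept probes, 5 had probes of opposite sign in this comparison (Mcm4, Tyms, Cdc20, Melk and Mybl2). Cdt1 and Gmnn differed by -0.06 and 0.02, and Ccne1 by -0.16.

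**Figure D2:**
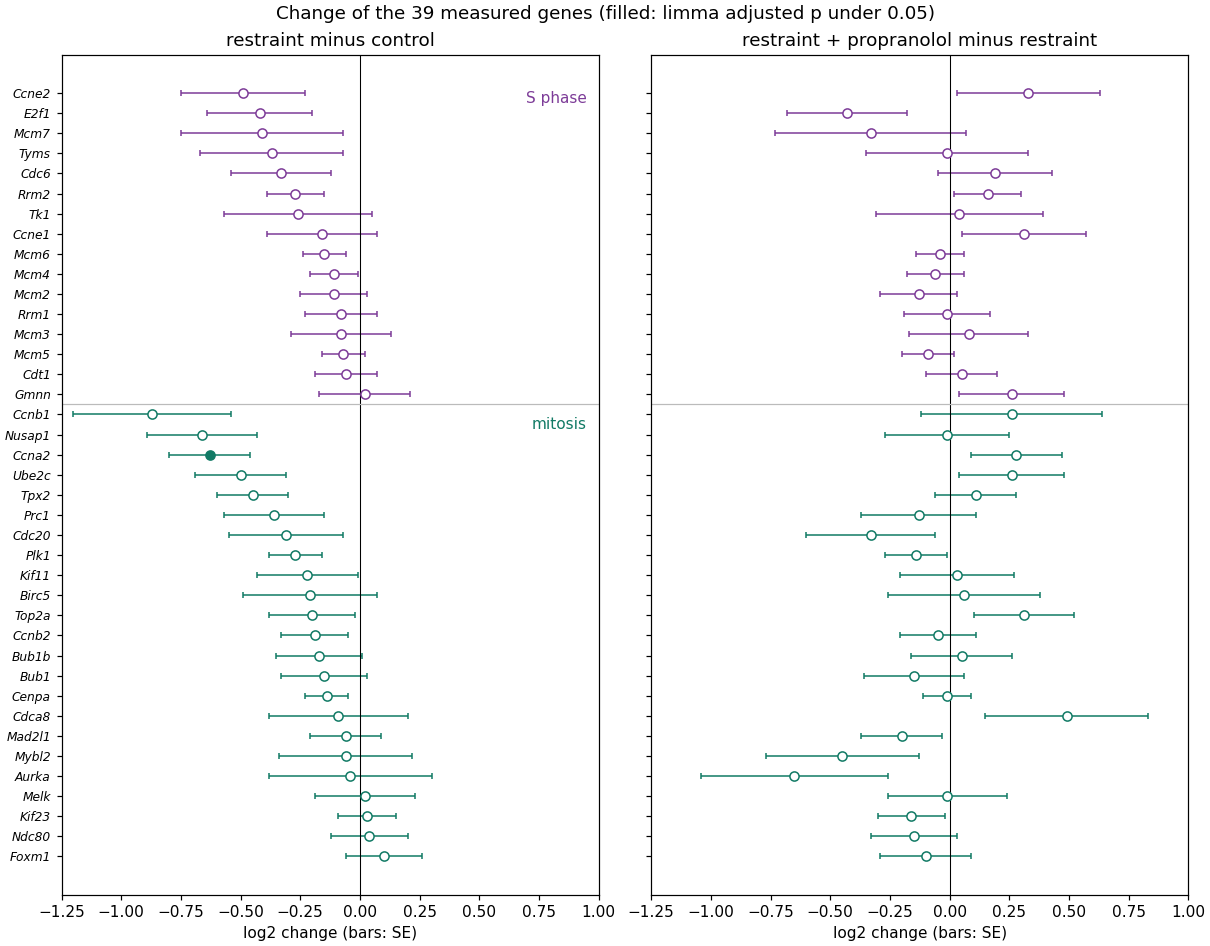
Log2 change (x axis, bars are SE) of each of the 39 measured genes (y axis), S phase above and mitosis below, for restraint minus control (left, 10 against 10 arrays) and restraint plus propranolol minus restraint (right, 6 against 10 arrays), and a filled point marks a limma adjusted p under 0.05. In the left panel 34 points lie left of 0 and Ccna2 alone is filled, and in the right panel 22 lie left of 0 and no point is filled.

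**Figure D3:**
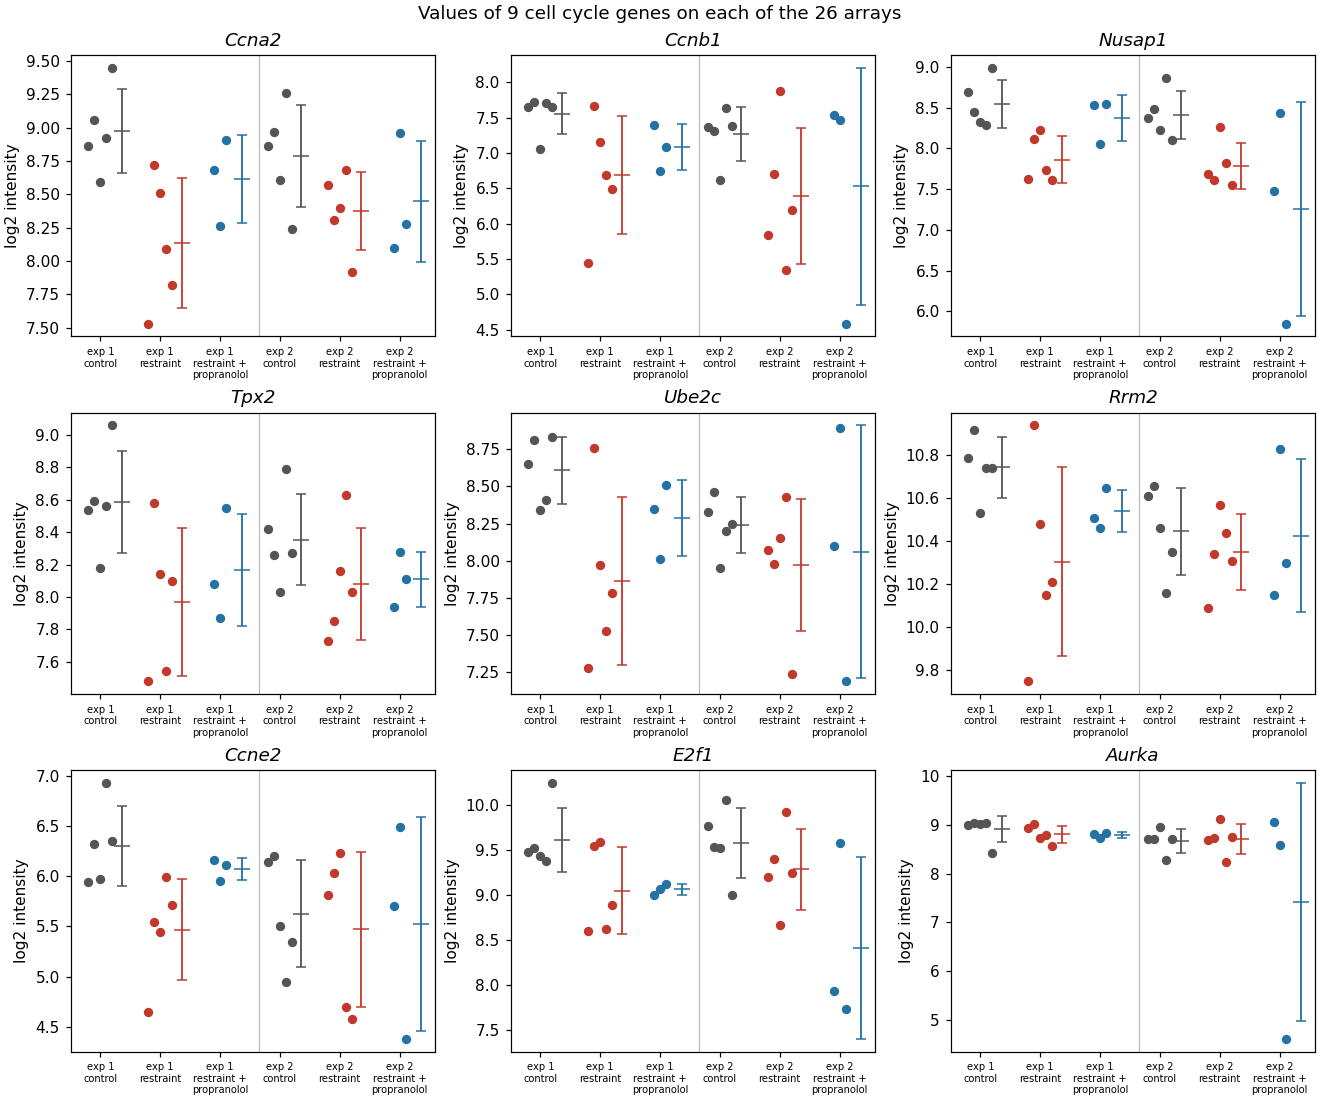
Log2 intensity (y axis) of 9 of the genes on each of the 26 arrays, by group (x axis), with each group's mean and SD beside its points. Restraint arrays lie mostly below controls for Ccna2 and Nusap1. Replicate 3 of restraint plus propranolol in experiment 2 is the lowest of all 26 for Ccnb1 (4.59), Nusap1 (5.85) and Aurka (4.62). By smaller margins it is also the lowest for Ccne2 (4.38), E2f1 (7.73) and Ube2c (7.19).

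The differences between restraint and control were larger in size in experiment 1, although the gene-by-gene test of the experiments against each other called 0 members. In experiment 1, 37 of 39 genes were negative with a median of -0.37, all 16 S phase genes among them, and the list means differed by -0.39 (S phase) and -0.38 (mitosis). In experiment 2, 22 of 39 were negative with a median of -0.02, and the list means differed by -0.03 and -0.09. By limma 0 members were called in either experiment, beside 0.339% and 0.0183% of all genes, and at an unadjusted p under 0.05 the members numbered 10 (all lower) in experiment 1 and 1 in experiment 2, beside 5.31% and 4.72% of all genes that were lower. The sign was negative in both experiments for 21 genes (53.8%, beside 32.1% of all genes), and 35 of 39 had the lower value in experiment 1, beside 5400 of 10914. That test, by limma, called 0 genes in all (0%), and at an unadjusted p under 0.05 it held 1 member, Mcm3 (-0.62 and 0.46), beside 3.34% of all genes.

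Single arrays moved these values. Without restraint replicate 1 of experiment 1 the list means there differed by -0.25 and -0.26, with 35 of 39 genes negative. Without control replicate 4 of experiment 2, where S phase genes were low (7.85), the differences in that experiment were -0.16 and -0.12, with 28 of 39 negative. The beadchip slides, read from the array names, allowed comparisons within a slide. On slide 1 (3 restraint and 5 control arrays of experiment 1) the lists differed by -0.37 and -0.37 and 36 of 39 genes were negative. On slide 3 (5 restraint and 2 control arrays of experiment 2) they differed by 0.20 and -0.05 and 16 of 39 were negative; without control replicate 4, which left 1 control array, these were -0.07, -0.13 and 23. The difference of Ccna2 was -0.72 on slide 1 and -0.37 on slide 3.

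**Figure D4:**
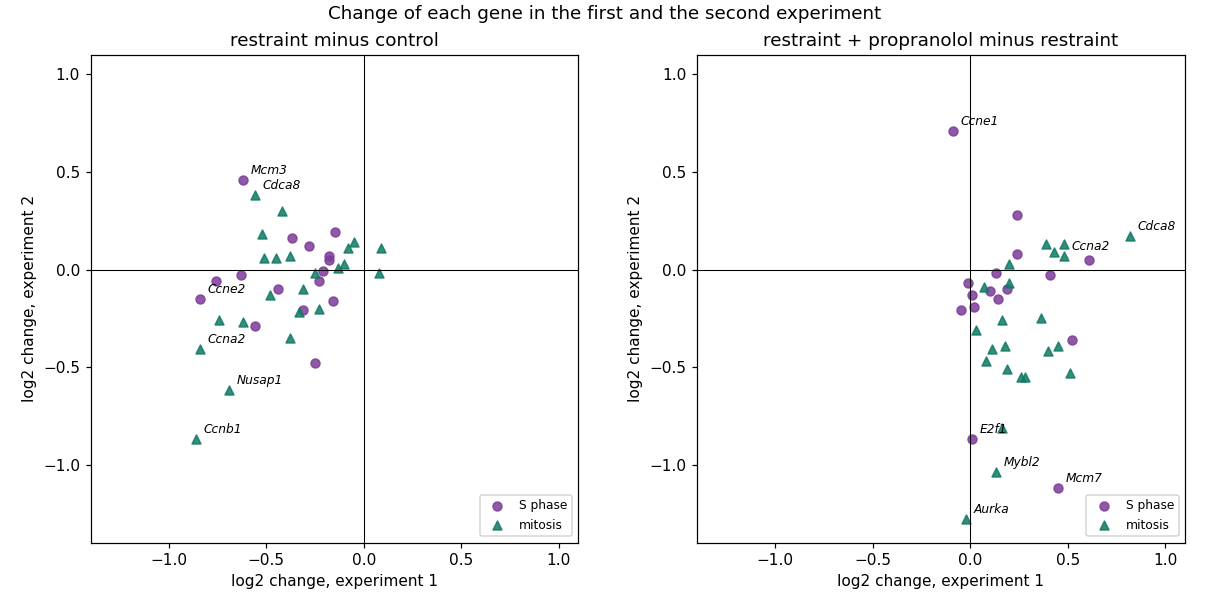
Log2 change of each of the 39 genes in experiment 1 (x axis) against experiment 2 (y axis), S phase as circles and mitosis as triangles, for restraint minus control (left) and restraint plus propranolol minus restraint (right). On the left 37 points lie left of 0 but only 22 lie below 0, and on the right 26 points fall at the lower right, positive in experiment 1 and negative in experiment 2.

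Propranolol given with restraint moved 0 of the 39 genes past the test against restraint alone. The comparison called 0 genes in all (0% of 10914) by limma, and at an unadjusted p under 0.05 it held 0 members beside 670 genes (6.14%). The member differences ran from -0.65 to 0.49 with a median of -0.01, and 22 of 39 were negative. The S phase mean was 8.28 ± 0.31 (SD, n = 6) with propranolol, 0.02 ± 0.14 (SE) from restraint, and the mitosis mean was 7.95 ± 0.55 (SD, n = 6), -0.03 ± 0.16 (SE) from restraint. Differences as large as those between restraint and control (-0.21 and -0.23) lie within 2 SE of these values. This comparison shares the restraint arrays with that of restraint and control.

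Most signs differed between experiments. In experiment 1, 35 of 39 genes were higher on average with propranolol than with restraint alone (median 0.19), and in experiment 2, 29 of 39 were lower (median -0.19), a pattern of signs held by 26 genes (66.7%, beside 24.9% of all genes). Single arrays moved the values of both experiments. In experiment 1 the list means differed by 0.18 (S phase) and 0.28 (mitosis), and without restraint replicate 1 by 0.05 and 0.15, with 30 of 39 genes positive and a median of 0.08. In experiment 2 the list means differed by -0.14 and -0.33. Without propranolol replicate 3 these were 0.07 and 0.08, with 14 of 39 genes negative, and without propranolol replicate 2 they were -0.37 and -0.60, with 35 negative. On slide 2 (3 propranolol and 2 restraint arrays of experiment 1) the lists differed by 0.21 and 0.29. Slide 3 held 1 propranolol array of experiment 2, which differed from 5 restraint arrays by -0.16 and -0.03. By limma the difference between the experiments called 0 members and 0 genes (0%), with a smallest adjusted p among members of 0.917, and at an unadjusted p under 0.05 it held Kif23, Nusap1 and Mcm7, 7.69% of members beside 5.13% of all genes.

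Ccna2 with propranolol read 8.68, 8.26 and 8.91 in experiment 1 and 8.1, 8.96 and 8.28 in experiment 2. These arrays lay within the span of the control and restraint arrays. Their mean was 8.62 in experiment 1 (control 8.98, restraint 8.13), though replicate 2 lay nearer the restraint mean. In experiment 2 their mean was 8.45 (control 8.79, restraint 8.38), and replicate 2 alone was above every restraint array. Against restraint the difference was 0.28 ± 0.19 (SE; limma adjusted p = 0.853), and against control -0.35 ± 0.19 (SE; limma adjusted p = 0.342).

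Aurka, the kinase of spindle poles, was 9, 9.04, 9.02, 9.04 and 8.43 on control, 8.94, 9.01, 8.72, 8.78 and 8.57 on restraint and 8.81, 8.72 and 8.83 on propranolol arrays of experiment 1. In experiment 2, Aurka was 8.71, 8.71, 8.95, 8.27 and 8.71 on control, 8.68, 8.73, 9.11, 8.24 and 8.75 on restraint and 9.05, 8.59 and 4.62 on propranolol arrays. The value of 4.62, on the array that stood apart, lay far below the other 25, which were between 8.24 and 9.11. The difference from restraint, -0.65 ± 0.39 (SE; limma adjusted p = 0.826), was 0.04 without that array. Cdca8, a subunit of the chromosomal passenger complex, was 6.81, 6.47, 7.14, 7.17 and 5.67 on control, 5.26, 6.06, 5.92, 7.13 and 6.09 on restraint and 6.78, 6.41 and 7.53 on propranolol arrays of experiment 1. In experiment 2, Cdca8 was 6.2, 6.27, 7.3, 4.61 and 6.1 on control, 7.12, 7.03, 6.46, 6.25 and 5.54 on restraint and 6.85, 6.65 and 6.45 on propranolol arrays. Cdca8 scattered widely in every control and restraint group, and its difference from restraint was 0.49 ± 0.34 (SE; limma adjusted p = 0.851).

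E2f1 with propranolol was 9, 9.07 and 9.12 in experiment 1 and 7.94, 9.57 and 7.73 in experiment 2. Replicates 1 and 3 of experiment 2 were lower than every other array of the 26, and replicate 2 lay with the controls. Against restraint E2f1 differed by -0.43 ± 0.25 (SE; limma adjusted p = 0.813). Without replicate 3 of experiment 2, the array that stood apart, this was -0.22, and without replicate 2 it was -0.61. Gmnn was 7.74, 7.87, 7.95, 8.08 and 7.51 on control, 7.09, 8.1, 7.96, 7.66 and 7.57 on restraint and 8.13, 7.72 and 7.91 on propranolol arrays of experiment 1. In experiment 2, Gmnn was 7.85, 8.02, 7.65, 5.99 and 7.58 on control, 7.63, 7.64, 8, 7.51 and 7.25 on restraint and 7.9, 8.06 and 7.7 on propranolol arrays. All 6 propranolol arrays were at or above the restraint mean of their experiment for Gmnn, with overlap in both experiments and a difference of 0.26 ± 0.22 (SE; limma adjusted p = 0.887). Ccne1, a second cyclin E gene, was 4.88, 5.57, 4.97, 5.65 and 4.8 on control, 4.82, 5.67, 5.32, 4.43 and 4.81 on restraint and 4.87, 5.06 and 4.82 on propranolol arrays of experiment 1. In experiment 2, Ccne1 was 5.39, 4.99, 5.06, 4.31 and 4.71 on control, 4.79, 4.52, 4.75, 5.19 and 4.37 on restraint and 4.46, 5.11 and 6.73 on propranolol arrays. Ccne1 was detected on 0 of the 3 propranolol arrays of experiment 1 and 0 of the 5 restraint arrays of experiment 2, and its high value of 6.73 came from the array that stood apart. Its difference from restraint, 0.31 ± 0.26 (SE; limma adjusted p = 0.889), was -0.03 without that array. In experiment 2 all propranolol arrays lay below all restraint arrays for 1 member, Kif23 (7.90 to 8.63 against 8.76 to 8.96), beside 1.39% of all genes.

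Against control, restraint with propranolol also called 0 of the 39 genes, beside 3.79% of all genes. The differences were negative for 34 of 39, with a median of -0.18 beside -0.02 for all genes, and 5 members were lower at an unadjusted p under 0.05, beside 11% of all genes. E2f1 was nearest to the threshold (-0.85 ± 0.25, SE, limma adjusted p = 0.0564), followed by Plk1 (-0.41 ± 0.13, SE, limma adjusted p = 0.0827), which was below the control mean on 6 of 6 arrays. E2f1 differed by -0.54 in experiment 1 and by -1.16 in experiment 2, where propranolol replicates 1 and 3 were the lowest of the 26 arrays. The list means differed by -0.19 ± 0.14 (S phase) and -0.26 ± 0.16 (mitosis, both SE), and without propranolol replicate 3 of experiment 2 by -0.09 and -0.05. This comparison shares the control arrays with that of restraint and control and the propranolol arrays with the preceding one. In experiment 1 all control arrays were on slide 1 and all propranolol arrays on slide 2, so condition and slide cannot be told apart there. In experiment 2 the 2 conditions shared slide 3 alone, with 2 control arrays and 1 propranolol array. With slide as a fixed term the genes called in this comparison went from 414 to 25.

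Under restraint 245 genes were called (2.24% of all genes, 1.19% lower), and each list of other cell cycle genes held some of them. Of 48 further replication genes measured (of 50 listed), 2 fell and 0 rose, and the median was -0.26 with 45 negative. The 2 were Dut, which removes dUTP (-0.63 ± 0.17, SE, limma adjusted p = 0.0441), and Dnmt1, the maintenance DNA methyltransferase (-0.37 ± 0.10, SE, limma adjusted p = 0.0477). Pcna, the sliding clamp, differed by -0.18 without passing. Of 58 further mitosis genes measured (of 74 listed), 1 fell, the kinetochore gene Mis12 (-0.63 ± 0.13, SE, limma adjusted p = 0.0098), and the median was -0.19 with 44 negative. Ckap5, a microtubule polymerase, was just short of the test (-0.69, limma adjusted p = 0.0528). The proliferation marker Mki67 was not measured here.

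Upstream of the members, 2 of 14 measured G1 regulators fell under restraint (of 16 listed, median -0.22), beside 1.19% of all genes called lower. Tfdp2, a dimer partner of E2F proteins, fell by 1.00 ± 0.21 (SE, limma adjusted p = 0.0156), and Skp2, the ubiquitin ligase subunit that targets p27, fell by 0.66 ± 0.17 (SE, limma adjusted p = 0.0411). Myc differed by -0.73 (limma adjusted p = 0.106). Of 24 measured inhibitors and DREAM complex genes (of 30 listed, median -0.04), 1 rose and 2 fell. Cdkn1a, which encodes the CDK inhibitor p21, rose by 0.69 ± 0.17 (SE, limma adjusted p = 0.0309), with changes of 0.81 and 0.57 in the 2 experiments. The MuvB subunit genes Lin54 and Lin52 fell by 0.64 and 0.71 (limma adjusted p = 0.0098 and 0.0494). The calls of Skp2, Dut, Dnmt1 and Lin52 lay near the threshold, as did that of Ccna2, which 21 of 37 alternative settings lost. Against control, restraint with propranolol showed Skp2 and Myc lower (-1.42 and -1.08, limma adjusted p = 0.000106 and 0.0216), Cdkn1a, Ccng2 and Pkmyt1 higher (0.89, 0.66 and 0.54), and Rbl1, Orc4, Pold3 and Mis12 lower (-1.11, -0.99, -0.71 and -0.68).

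Erythroid and B cell precursor markers were lower under restraint as well. Lists of neutrophil and stem cell progenitors, of 7 and 9 measured genes, held 0 called genes. Beside 2.24% of all genes called, that does not set lists of this size apart. Of 16 erythroid markers, 16 were measured, 16 were negative and 7 were called lower (median -1.55), among them Klf1 (-2.06) and Alas2 (-2.63). Their summed linear intensity spanned 2790 to 16100 on control and 2180 to 4150 on restraint arrays of experiment 1, and 2950 to 15300 on control and 2500 to 4560 on restraint arrays of experiment 2. With propranolol it spanned 2180 to 3310 in experiment 1 and 1820 to 11400 in experiment 2, where the array at 11400 was replicate 2. Of 13 B cell precursor markers, 8 were measured, all 8 negative, and 2 were called lower, Rag1 and Vpreb3. Their sum spanned 385 to 2080 on control and 287 to 495 on restraint arrays of experiment 1, and 435 to 2040 and 407 to 516 in experiment 2, with 305 to 335 and 299 to 630 under propranolol. Pax5, Ms4a1 and Rag2 of that list were detected on 0 arrays. Array by array, the erythroid sum and the cell cycle means ran together in some places and apart in others. The controls with the 2 highest erythroid sums of experiment 1 (15000 and 16100) had the 2 highest S phase means (8.76 and 8.89), the control with the lowest sum of experiment 2 (2950) had the lowest S phase mean (7.85), and the propranolol array at 11400 was the highest of its group for both lists (8.62 and 8.23). In contrast, the control with the lowest sum of experiment 1 (2790) had an S phase mean of 8.51, and restraint replicate 1 of that experiment, the lowest of its group for both lists (7.69 and 7.44), had the second highest sum of its group (3260). In experiment 2 the restraint array with the highest sum (4560) had the lowest means of its group (8.26 and 7.86), and the one with the lowest sum (2500) had the highest mitosis mean (8.25). The part of these cells in the cell cycle values was not tested. Granulocyte, monocyte, T cell, NK cell and progenitor marker lists held 0 genes called by limma in the same comparison. At an unadjusted limma p under 0.05, 2 monocyte and macrophage genes were higher and 1 progenitor gene was lower. The monocyte and macrophage list had a median of 0.23, with 7 of 9 measured genes positive. The median was -0.09 for the 7 measured genes of neutrophil primary granules and progenitors. For the 9 measured genes of stem cells and progenitors it was 0.01. Of the 7 granule and progenitor genes, 7 were negative in experiment 1 and 3 in experiment 2.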

How the data were processed

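RNA amplified and biotin-labelled with NuGEN kits was hybridized to beadchips. GenomeStudio is the tool named in the submitters' processing notes, with no version. The authors deposited a raw matrix of mean bead signal, an intensity on a linear scale without background subtraction (lowest value 96.0), with, per the file headers, a detection p-value for each of 25697 probes and array. Their normalized intensity values, by a method not given in the sources used here, served as an alternative. A further 6 arrays of the matrix have no group in the labels and were not used.

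Raw values were normalized with limma's neqc (offset 16). A probe entered the fits when its detection p was below 0.05 on 3 arrays or more (15061 probes), and the kept probe of highest mean stood for a gene. Members were matched by the file's symbol, and 23788 probes were named through their gene identifier. Linear models with condition and experiment, or with the 6 groups, were fitted with limma and moderated variances to all 26 arrays, adjusted by Benjamini-Hochberg over all probes, and tested on simulated data. Called means an adjusted p under 0.05, and intervals are 95%. Array number limits the precision. Full values are given for called members and for the 5 S phase and 5 mitosis members of smallest p under restraint and the 3 of each with propranolol. Of the other lists, called genes and up to 3 of smallest p are named, and Pcna, Klf1 and Alas2 were added after their values were seen. Members and lists were chosen with earlier results of these data known. Same-numbered arrays did not deviate together (2 of 16 pairs correlated above 0.1, range -0.27 to 0.32), so replicate numbers were not taken to pair arrays. Slides were tried as a fixed term and a random block. The software was limma 3.58.1 in R 4.3.3, and figures were drawn with matplotlib 3.10.9.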

Additional observations from a re-analysis of the deposited data

Results flagged for a closer look

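Among 64 checks of groups of 5 arrays, 6 found 1 array far from the other 4, where chance alone sets apart about 1 in 20 groups. The checks share arrays, and the S phase mean includes Gmnn, so an excess over chance cannot be read from this count. The S phase mean of control replicate 4 in experiment 2 was 7.85, with the others at 8.38 to 8.56. On the same array Gmnn read 5.99 beside 7.58 to 8.02, and this array had 42.5% of probes detected. Control replicate 5 of experiment 1, with 44.6% detected, read 10.24 for E2f1 (others 9.38 to 9.52) and 8.43 for Aurka (others 9 to 9.04). Ccnb1 read 7.05 on control replicate 3 of experiment 1 (others 7.65 to 7.72), the control with the lowest erythroid marker sum of its group (2790). Cdc6 read 5.74 on restraint replicate 1 of experiment 1 (others 6.94 to 7.29), the array with the lowest S phase mean (7.69) among restraint arrays. The cause was not tested for any of these.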

How the results depend on the processing

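Under restraint the count of members called was 1, and it became 0 with median scaling, with no filter on detection, with slide as a fixed term or with the replicate block, 2 with the authors' normalized values (Ccna2 and Nusap1) and 6 with array weights (Ccna2, Ccnb1, Plk1, Nusap1, Tpx2 and Ube2c). Leaving out 1 array gave 0 to 2: the call was lost in 16 cases (without control replicate 1, 2, 4 or 5, restraint replicate 1, 3, 4 or 5 or propranolol replicate 1 or 2 of experiment 1, or without control replicate 1, 2 or 4 or restraint replicate 2, 3 or 5 of experiment 2), and without propranolol replicate 3 of experiment 2 Nusap1 was added (adjusted p = 0.0118). Array weights called 3 members in experiment 1 (Ccna2, Kif11 and Ube2c). Propranolol with restraint against control called 1 member with the stricter filter or with probes averaged (E2f1) and with array weights (Plk1), 2 with the authors' values (both), and 0 to 1 with 1 array left out. Against restraint alone it called 0 members under all 37 settings. Within experiment 2 that count was 0 to 2, the 2 being E2f1 and Kif23 without propranolol replicate 2.

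All genes called under restraint (245) numbered 153 with median scaling, 139 with no filter, 81 with slide fixed, 719 with array weights, and 110 to 343 with 1 array left out. Without the 3 arrays of lowest weight, a choice made after seeing the data, they numbered 406, and Ccna2 (-0.51, adjusted p = 0.0983) was lost while Nusap1 passed (0.0254). For propranolol against restraint the count rose from 0 to 7 with array weights (0 to 2 with 1 array left out), and against control it went from 414 to 25 with slide fixed, 934 with weights and 238 to 508 with 1 array left out. With the replicate block it was 243, and Ccna2 stood at -0.63 (adjusted p = 0.0539); the block added no member call. The S phase difference under restraint was 0.20 within slide 3, and the mitosis difference with propranolol was 0.29 within slide 2. Aurka under propranolol reversed to 0.23 with slide fixed and to 0.04 without propranolol replicate 3 of experiment 2 or the 3 low-weight arrays (-0.89 to 0.04 with 1 array left out), and Ccne1 to -0.03 in both of the last cases (-0.03 to 0.45). The cause was not tested. Signal near background limits Ccne1, Ccnb2 and Ccne2.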
